A study of Oryza sativa Indica Group with 45 samples.

Results

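Transcripts of genes for ammonium uptake and nitrogen assimilation were followed in an indica rice hybrid and its parents. The set was defined by 8 gene names, AMT1-1, AMT1-2 and AMT1-3 (ammonium transporters), GLN2, GLN1-1 and GLN1-2 (glutamine synthetases) and GDH1 and GDH2 (glutamate dehydrogenases). A probe set, the group of short probes on the array that reports 1 transcript, was taken where the array annotation pairs it with exactly 1 gene that carries one of these names in RefSeq. This found 7 genes with 11 probe sets, of 17905 genes and 57381 probe sets in all. RefSeq gives the names AMT1-2 and AMT1-3 to both of a pair of genes, and the probe set called AMT1-2 here belongs to the gene that also carries the name OsAMT1;2. The gene of OsAMT1;3 has no probe set in the annotation used and was not analysed here.

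The hybrid was MRP5401, its female parent PMS80 (B line, here the B parent) and its male parent PR319 (R line, here the R parent). Total RNA was taken from leaves and roots of 14-day-old seedlings (young leaf, young root), leaves and roots of plants of 40 to 60 days (mature leaf, mature root), and flag leaves, the last leaf below the panicle, of 90-day-old plants. Each of the 15 groups (5 stages in 3 genotypes) held 3 arrays called biological replicates, and 0 pairs of arrays were identical. The labels give 1 growth protocol, of hydroponic seedlings kept at 28 °C, and neither the nitrogen supply nor the time of harvest is given in the sources used here. Whole organs were sampled, so fewer cells of a type and less RNA per cell cannot be told apart.

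Levels are mean log2 intensities ± SD over 3 arrays of the Affymetrix rice array, and differences are log2 values ± SE as limma estimated them, so that a difference of 1 is a 2-fold change. A transcript is said to rise, fall or differ only where the adjusted p was under 0.05 over the 24130 probe sets tested, those with a mean of 5 or more in at least 1 group. A mean under 5 lies near background, and where it is the lower of the compared means the difference is printed as a bound ("at least"), computed with 5 in its place. Where all compared means are under 5, no order is read. Of the 11 probe sets 10 were tested, and the second probe set of AMT1-1 stayed under 5 in all 15 groups. Probe sets differ in brightness, so no level is set against that of another probe set.

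Roots take up ammonium through AMT proteins in the plasma membrane, and rice in flooded soil relies on ammonium as a nitrogen source. Glutamine synthetase joins ammonium to glutamate, and glutamate synthase returns glutamate from the glutamine formed. The plastid isoform encoded by GLN2 takes back the ammonium set free in leaves by photorespiration, while the cytosolic isoforms of the GLN1 genes serve primary assimilation in roots and the movement of nitrogen between organs. Glutamate dehydrogenase of mitochondria can run in either direction and is known mostly for releasing ammonium from glutamate.

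**Figure D1:**
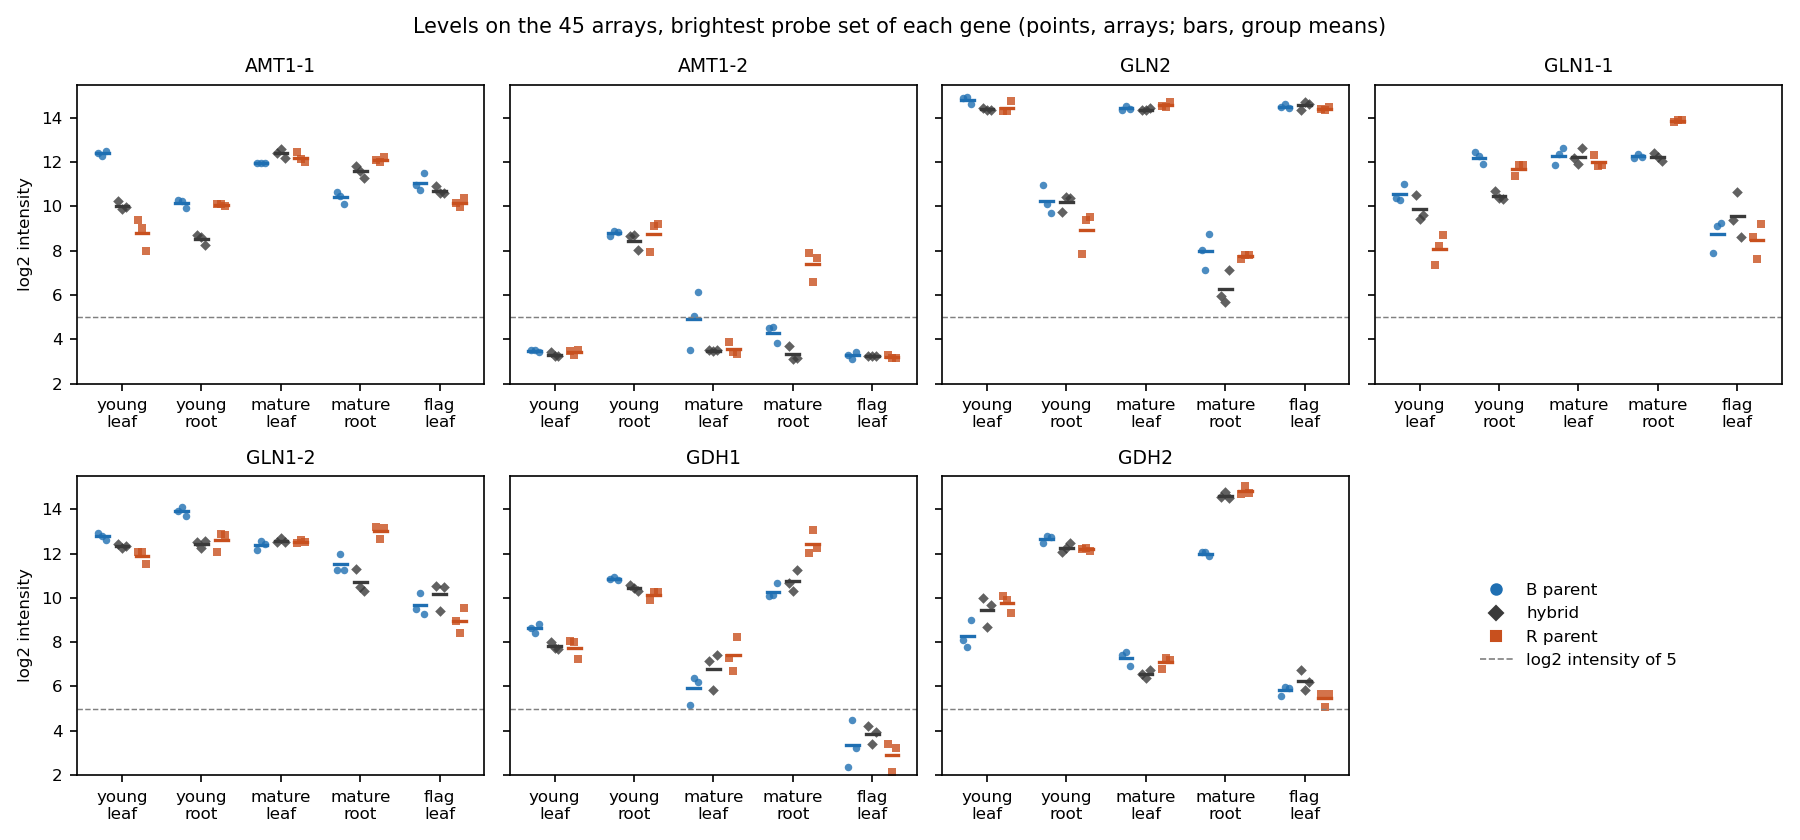
Log2 intensity of the first probe set of each of the 7 genes (vertical axis) by stage (horizontal axis), with 1 point per array, bars for the means and a colour per genotype. A dashed line marks the level of 5 under which values lie near background. GLN2 stands high in all leaves, and GDH1 and GDH2 stand higher in roots than in leaves of the same age. Means of AMT1-2 are above the line in young roots and in mature roots of the R parent.

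AMT1-1, a high-affinity ammonium transporter gene, was above background in every organ and changed with age and genotype. Averaged over genotypes its level was 10.4 in young leaves, 9.59 in young roots, 12.18 in mature leaves, 11.36 in mature roots and 10.64 in flag leaves. It rose from young to mature roots by 1.78 ± 0.13 (adjusted p = 3.04e-14) and from young to mature leaves by 1.78 ± 0.13 (adjusted p = 5.47e-14). From mature to flag leaves it fell by 1.54 ± 0.13. Neither rise was alike in the genotypes. From young to mature roots the change was 3.05 (hybrid), 0.25 (B parent, with overlapping arrays) and 2.03 (R parent). From young to mature leaves it was 2.37 (hybrid), -0.43 (B parent) and 3.4 (R parent). Young leaf against young root also differed in direction, at 1.49, 2.24 and -1.3 in the same order, so the mean difference over genotypes of 0.81 ± 0.13 describes no single genotype, and its call did not hold once the spike-in level (described below) entered the model (0.37, adjusted p = 0.202). The highest of the 15 group means was that of hybrid mature leaves and the lowest that of hybrid young roots, and for 9 of 14 neighbours in the order the gap was no larger than the larger SD of both.

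Young roots of the hybrid held less AMT1-1 RNA than either parent. The arrays read 8.71, 8.62 and 8.26 (hybrid), 10.27, 10.26 and 9.93 (B parent) and 10.09, 10.11 and 10.03 (R parent). The hybrid arrays all lay below the 6 parent arrays. The differences were -1.62 ± 0.23 against the B parent (adjusted p = 9.96e-07) and -1.55 ± 0.23 against the R parent (adjusted p = 3.18e-06), while the parents did not differ detectably (-0.08 ± 0.23). Against the average of its parents' log2 levels (the mid-parent) the hybrid stood at -1.59 ± 0.2 (adjusted p = 1.37e-07). The same hybrid arrays carried more leaf marker signal, the mean of 7 leaf marker genes reading 13.01 (hybrid), 11.17 (B parent) and 11.18 (R parent). Neither the source of this signal nor its part in the young root differences of AMT1-1 and of the other genes was tested.

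In young leaves AMT1-1 separated all 3 genotypes. The arrays read 12.41, 12.27 and 12.51 (B parent), 10.25, 9.86 and 9.96 (hybrid) and 9.38, 9.0 and 7.97 (R parent). No array of one genotype overlapped with those of another, and the hybrid lay between its parents. The R parent was 12.2-fold below the B parent (-3.61 ± 0.23, adjusted p = 3.08e-15). The hybrid differed from the B parent by -2.37 ± 0.23 and from the R parent by 1.24 ± 0.23, the second being 1.92 with the spike-in covariate. The difference from the mid-parent, -0.57 ± 0.2, passed (adjusted p = 0.0185) but was lost without hybrid replicate 2 or 3 or R parent replicate 1 (-0.49, -0.53 and -0.42), when the model held young leaf arrays only (adjusted p = 0.168) and after adding the spike-ins to the model (-0.07), and was -1.48 with a mid-parent on the linear scale.

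In mature roots the order of the parents was turned. The arrays read 12.1, 11.99 and 12.23 (R parent), 10.66, 10.45 and 10.1 (B parent) and 11.84, 11.61 and 11.3 (hybrid). The R parent exceeded the B parent by 1.7 ± 0.23 (adjusted p = 1.04e-07) and the hybrid exceeded it by 1.18 ± 0.23 (adjusted p = 0.000111). Both differences contain the B parent arrays, which lay below all arrays of the other genotypes. In mature leaves the 3 genotypes did not differ detectably, with parent means of 11.96 ± 0.01 and 12.18 ± 0.23 and a hybrid mean of 12.39 ± 0.21. In flag leaves the R parent was below the B parent by -0.91 ± 0.23 (adjusted p = 0.00486), a call lost without B parent replicate 3 (-0.69, adjusted p = 0.067).

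AMT1-2, another ammonium transporter gene, was highest in young roots. There the arrays read 8.67, 8.69 and 8.01 (hybrid), 8.65, 8.89 and 8.84 (B parent) and 7.92, 9.1 and 9.2 (R parent). The genotypes overlapped and none differed from another. In young, mature and flag leaves all 9 group means were under 5. The highest was 4.9 ± 1.33 in mature leaves of the B parent, where the arrays ran from 3.5 to 6.14. Young leaf minus young root was -3.66 or lower with the leaves set to 5 (adjusted p = 7.35e-22). In mature roots the gene was above background in the R parent, with arrays of 7.88, 6.58 and 7.68. The B parent read 4.51, 4.53 and 3.83 and the hybrid 3.68, 3.11 and 3.17, so both stood near background. The R parent therefore exceeded the B parent by at least 2.38 (adjusted p = 1.02e-08), and the hybrid minus the R parent was -2.38 or lower with the hybrid set to 5 (adjusted p = 7.02e-11). From young to mature roots the mean of the R parent changed by -1.36, and those of the hybrid and the B parent went from 8.46 ± 0.39 and 8.79 ± 0.13 to under 5.

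GLN2, for the plastid glutamine synthetase, was high and even in leaves and lower in roots. In the 9 leaf groups its means lay between 14.36 and 14.80, and no leaf comparison of genotypes passed for the first of its 2 probe sets. Leaf exceeded root by 4.76 ± 0.2 in seedlings (adjusted p = 1.58e-21) and by 7.13 ± 0.2 at 40 to 60 days (adjusted p = 3.16e-27). This difference had the same direction in each genotype, from 4.2 to 5.54 in seedlings and from 6.46 to 8.11 later. From young to mature roots GLN2 fell by 2.46 ± 0.2. The leaf markers, present in young roots as given above, averaged 3.31 to 3.61 in mature roots. The part of these transcripts in the GLN2 signal of young roots was not tested.

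In mature roots GLN2 was lower in the hybrid than in its parents. The arrays read 5.96, 5.68 and 7.11 (hybrid), 8.04, 7.12 and 8.77 (B parent) and 7.64, 7.81 and 7.82 (R parent). All hybrid arrays lay below the 6 parent arrays, the highest of them close to the lowest of the B parent. The differences were -1.72 ± 0.34 (adjusted p = 0.000159) and -1.5 ± 0.34 (adjusted p = 0.000666), and the second was lost with the spike-in covariate (-1.0) and with the 3' index (-0.63), described below, as a covariate. In young roots the R parent had the lowest mean, with arrays of 7.85, 9.38 and 9.53 against 10.97, 10.09 and 9.72 (B parent) and 9.76, 10.4 and 10.37 (hybrid). Its first replicate stood apart: the differences of 1.26 ± 0.34 (hybrid minus R parent) and -1.34 ± 0.34 (R parent minus B parent) passed with it and not without it (0.72 and -0.81). Array weights brought them to 0.78 and -0.73.

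GLN1-1, for a cytosolic glutamine synthetase, was high in roots and mature leaves and lower in young and flag leaves. Averaged over genotypes it stood at 9.5 in young leaves, 12.17 in mature leaves and 8.93 in flag leaves. It rose by 2.67 ± 0.23 from young to mature leaves (adjusted p = 1.68e-12) and fell by 3.24 ± 0.23 to flag leaves (adjusted p = 1.12e-14). The arrays of these stages also differed in the 3' index, as given below. Each step had 1 sign in all 3 genotypes, at 1.73 (B parent) to 3.91 (R parent) in the first, where the parents differed by 2.18 ± 0.56 (adjusted p = 0.00224), and in the second at -2.67 to -3.54. Young roots exceeded young leaves on average (leaf minus root -1.96 ± 0.23, or -1.17 with the spike-in covariate). By genotype this was -0.62 (hybrid, with overlapping arrays), -1.64 (B parent) and -3.6 (R parent). At 40 to 60 days the mean difference of -0.6 ± 0.23 came with 0.02 (hybrid), 0.04 (B parent) and -1.86 (R parent), and was not called with the spike-in covariate (adjusted p = 0.293).

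The hybrid had less GLN1-1 RNA in young roots than its parents, on the same arrays that stood apart in leaf markers. The arrays read 10.71, 10.39 and 10.31 (hybrid), 12.45, 12.25 and 11.9 (B parent) and 11.35, 11.85 and 11.88 (R parent). The hybrid arrays all lay below the 6 parent arrays. The hybrid was 3.31-fold lower than the B parent (-1.73 ± 0.39, adjusted p = 0.00102). Against the R parent the difference of -1.22 ± 0.39 was close to the threshold (adjusted p = 0.0235), and it was lost without hybrid replicate 2 or 3 or R parent replicate 2 or 3 (-1.18, -1.14, -1.14 and -1.13) and with all probe sets tested (adjusted p = 0.0559). With the replicate number as a block its adjusted p was 0.0519.

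In young leaves and mature roots the R parent set the differences in GLN1-1. Its young leaf arrays read 7.35, 8.23 and 8.69, below the 10.39, 10.3 and 10.99 of the B parent and the 10.52, 9.42 and 9.63 of the hybrid. The difference of the R from the B parent was -2.47 ± 0.39 (adjusted p = 3.03e-06). The hybrid minus the R parent was 1.77 ± 0.39 (adjusted p = 0.000291), lost with the spike-in covariate (0.56). In mature roots the R parent was the highest, at 13.8, 13.88 and 13.88, against 12.18, 12.34 and 12.24 (B parent) and 12.39, 12.21 and 12.04 (hybrid). It exceeded the B parent by 1.6 ± 0.39 (adjusted p = 0.000755), and the hybrid minus the R parent was -1.64 ± 0.39 (adjusted p = 0.00112).

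GLN1-2 encodes the cytosolic isoform known in rice for assimilating ammonium in roots. Averaged over genotypes it stood at 9.59 in flag leaves and at 11.74 to 12.99 in the other stages. In the hybrid, mature roots (10.7 ± 0.52) were close to flag leaves (10.15 ± 0.64). GLN1-2 fell from mature to flag leaves by 2.9 ± 0.17 (adjusted p = 5.96e-17), in each genotype by an amount between -2.42 and -3.55. Between young and mature leaves it did not differ detectably (0.15 ± 0.17). From young to mature roots it changed by -1.25 ± 0.17 on average, with -1.74 (hybrid), -2.41 (B parent) and 0.4 (R parent). The average of young leaf minus young root, -0.64 ± 0.17, was lost with the spike-in covariate (adjusted p = 0.1). Mature leaf minus mature root differed in direction, at 1.87 (hybrid), 0.87 (B parent) and -0.47 (R parent).

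GLN1-2 was highest in the B parent in young roots and in the R parent in mature roots. The young root arrays read 13.93, 14.12 and 13.7 (B parent), 12.51, 12.24 and 12.58 (hybrid) and 12.09, 12.87 and 12.83 (R parent). The B parent lay above all others, and the hybrid overlapped with the R parent. The hybrid minus the B parent was -1.47 ± 0.29 (adjusted p = 0.000164) and R minus B parent -1.32 ± 0.29 (adjusted p = 0.000513), which share the B parent arrays. The hybrid minus the mid-parent was -0.81 ± 0.25 (adjusted p = 0.0173), lost without hybrid replicate 2 (-0.71).

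In mature roots the GLN1-2 arrays read 13.19, 12.64 and 13.16 (R parent), 11.27, 11.99 and 11.26 (B parent) and 11.3, 10.5 and 10.32 (hybrid). The R parent lay above all others, and the B parent and the hybrid overlapped. The hybrid was 4.91-fold below the R parent (-2.29 ± 0.29, adjusted p = 7.65e-08), and R minus B parent was 1.49 ± 0.29 (adjusted p = 3.95e-05). The difference from the B parent, -0.8 ± 0.29, did not hold without hybrid replicate 2 or 3 or B parent replicate 2 (-0.7, -0.61 and -0.56). Smaller calls were -0.89 ± 0.29 for the R parent minus the B parent in young leaves, lost without R parent replicate 3 (-0.71), and 1.17 ± 0.29 for the hybrid minus the R parent in flag leaves, lost without hybrid replicate 1 or R parent replicate 2 (0.97 and 0.9).

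GDH1, for a mitochondrial glutamate dehydrogenase, was a root transcript that declined in leaves with age. Its level averaged 10.48 in young and 11.16 in mature roots, and 8.06 in young and 6.7 in mature leaves. In flag leaves all 3 genotypes were under 5. Leaf minus root was -2.42 ± 0.25 in seedlings (adjusted p = 5.91e-11) and -4.46 ± 0.25 at 40 to 60 days (adjusted p = 3.11e-18), with the same sign in each genotype. Mature minus young leaf was -1.36 ± 0.25, made of -2.71 (B parent), -1.01 (hybrid) and -0.36 (R parent).

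The genotypes differed in GDH1 mainly in mature roots, where the R parent was high. The arrays read 12.03, 13.05 and 12.26 (R parent), 10.09, 10.11 and 10.65 (B parent) and 10.67, 10.32 and 11.26 (hybrid). All R parent arrays lay above the others, and hybrid and B parent overlapped. The R parent exceeded the B parent by 2.16 ± 0.43 (adjusted p = 5.59e-05), and the hybrid minus the R parent was -1.69 ± 0.43 (adjusted p = 0.00182). In mature leaves the R parent minus the B parent was 1.49 ± 0.43 (adjusted p = 0.0138), a call lost without B parent replicate 1 (1.11) or R parent replicate 3 (1.07).

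GDH2, for another subunit of the enzyme, showed the same contrast of roots and leaves. By its first probe set the level averaged 12.38 in young roots, 13.82 in mature roots, 9.16 in young leaves, 6.98 in mature leaves and 5.86 in flag leaves. Leaf minus root was -3.22 ± 0.16 in seedlings and -6.83 ± 0.16 at 40 to 60 days (adjusted p = 2.17e-19 and 1.32e-29). Over the leaf stages it fell, with -2.18 ± 0.16 for mature less young leaf and -1.13 ± 0.16 for flag less mature leaf. From young to mature roots this probe set rose by 1.44 ± 0.16 on average, made of 2.36 (hybrid), 2.63 (R parent) and -0.67 (B parent). In the order of the 15 group means, neighbours lay within the larger of their SDs in 5 of 14 pairs for GDH2, 7 of 11 above background for GDH1, 9 of 14 for GLN2 and 10 of 14 for both GLN1-1 and GLN1-2.

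In mature roots the first probe set of GDH2 was higher in the hybrid and in the R parent than in the B parent. The arrays read 14.56, 14.77 and 14.52 (hybrid), 14.67, 15.07 and 14.75 (R parent) and 12.05, 12.06 and 11.88 (B parent). All 6 arrays of the first pair lay above the 3 of the B parent. The hybrid was 6.15-fold above the B parent (2.62 ± 0.28, adjusted p = 2.41e-09) and the R parent 7.11-fold (2.83 ± 0.28, adjusted p = 1.09e-10). By this probe set the hybrid and the R parent did not differ detectably (-0.21 ± 0.28, 95% interval -0.77 to 0.35), while set 3 put the hybrid lower, as given below. In young leaves too both exceeded the B parent by this probe set, the hybrid by 1.16 ± 0.28 (adjusted p = 0.00114, or 0.0955 with young leaf arrays alone) and the R parent by 1.46 ± 0.28 (adjusted p = 3.9e-05). The other sets did not show this. Set 3 read 5.07 ± 0.76 (hybrid), 4.72 ± 0.89 (R parent) and 4.71 ± 0.35 (B parent) in young leaves, and set 2 was under 5 in all genotypes.

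**Figure D2:**
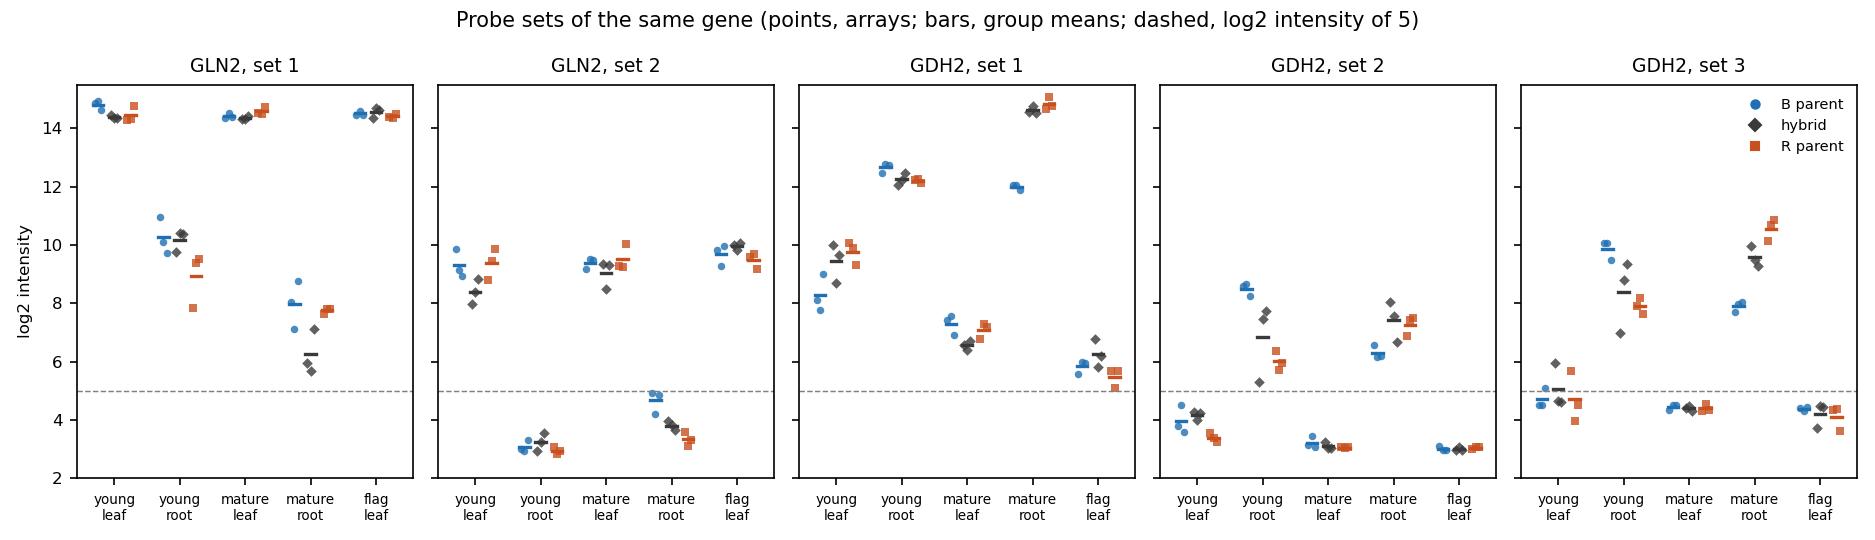
Log2 intensity of the 2 probe sets of GLN2 and the 3 of GDH2 (vertical axis) by stage (horizontal axis), with 1 point per array, bars for the means, a colour per genotype and a dashed line at 5. The second GLN2 probe set lies under the line in all roots, and in young roots the B parent lies above the R parent in all 3 sets of GDH2, by far less in the first.

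Where a gene had several probe sets, they had the same direction between organs and differed in size or call between genotypes. Averaged over genotypes the second GLN2 probe set stood between 9.03 and 9.71 in the leaf stages and under 5 in all roots. In young leaves it put the hybrid below both parents, at 8.39 ± 0.43 against 9.31 ± 0.49 and 9.37 ± 0.53, where the first did not differ. Those differences, -0.92 ± 0.28 and -0.98 ± 0.28, were lost with the spike-in covariate (-0.62 and -0.31) and with young leaf arrays alone (adjusted p = 0.11 and 0.0642), and the first also without hybrid or B parent replicate 1 (-0.71 and -0.64). Sets 2 and 3 of GDH2 share a source transcript, and set 3 is marked by the maker as able to bind related sequences. In young roots they gave -2.49 ± 0.35 and -1.96 ± 0.4 for the R parent minus the B parent (adjusted p = 5.17e-07 and 0.000209), against -0.46 ± 0.28 by the first. The hybrid minus the B parent was -1.67 ± 0.35 and -1.49 ± 0.4 against -0.4 ± 0.28, but -0.91 and -0.79 without hybrid replicate 1, of which the second was not called. In mature roots all 3 probe sets put the R parent above the B parent, by 2.83 ± 0.28, 0.97 ± 0.35 and 2.66 ± 0.4, the second lost without R parent replicate 2 or 3 (0.89 and 0.87). Set 3 also put the hybrid below the R parent there (-0.99 ± 0.4, adjusted p = 0.047), with arrays that did not overlap. That call was lost without hybrid or R parent replicate 2 or 3 (-0.85 to -0.93), with both covariates (-0.72 and -0.78), and after quantile normalization (-0.92). Set 2 gave 0.16 ± 0.35. The sets also disagreed on the change from young to mature roots over all genotypes, at 1.44 ± 0.16 by the first, -0.11 ± 0.2 (not called) by set 2 and 0.63 ± 0.23 by set 3, the last lost without young root hybrid replicate 1 (0.4). In the B parent that change was -0.67, -2.2 and -1.96.

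**Figure D3:**
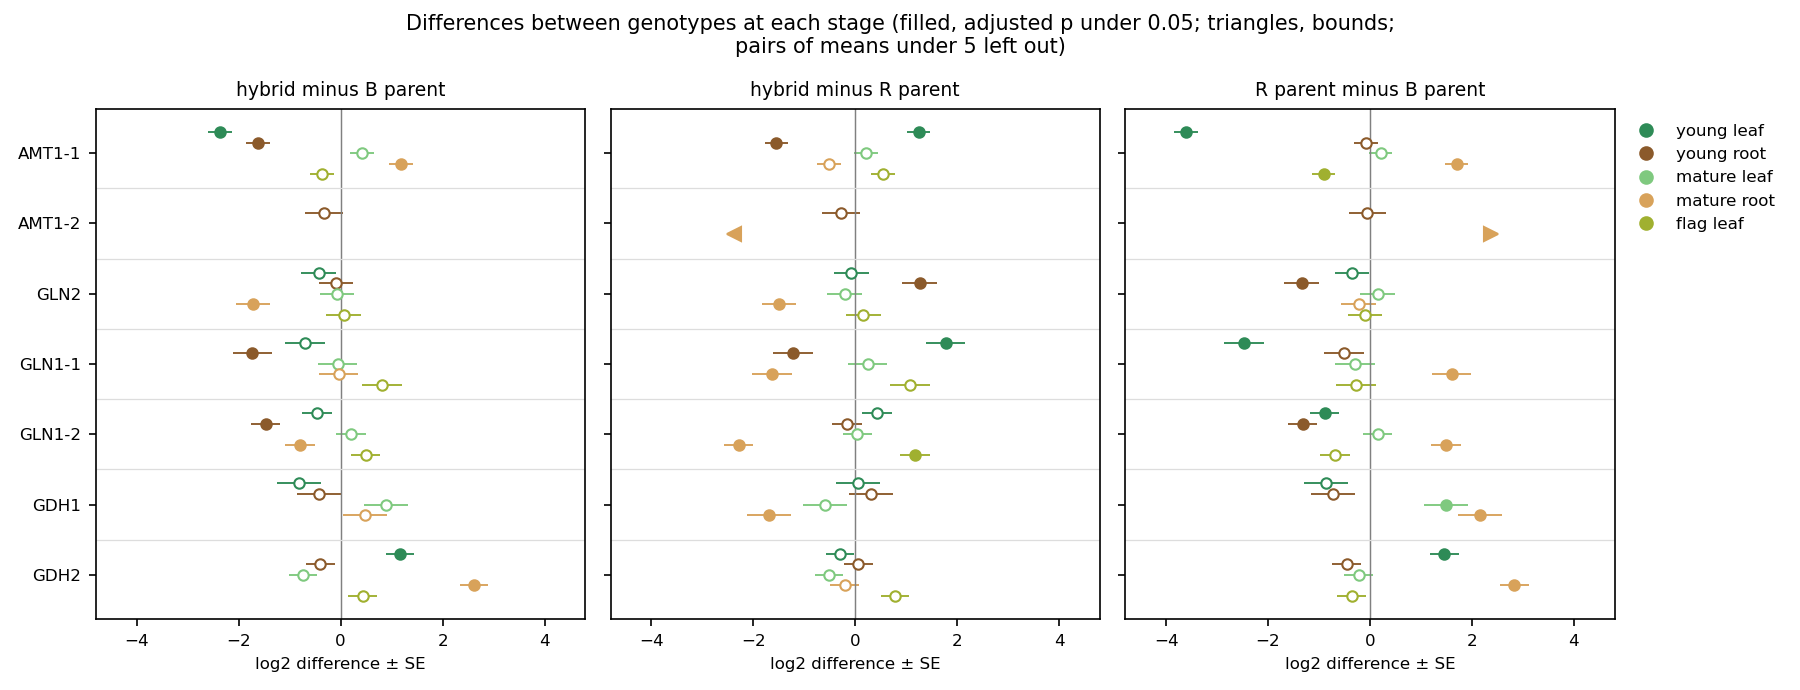
Differences between genotypes (log2, horizontal axes) for the first probe set of each gene (vertical axes), 1 panel per pair of genotypes and a colour per stage, with SE bars and filled points for an adjusted p under 0.05. Triangles are bounds, with the mean under 5 set to 5. For R minus B parent the points of mature roots lie furthest to the right in every gene but GLN2, and those of mature and flag leaves are mostly open.

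Over all stages 30 of 100 tests of the hybrid against a parent passed, 3 of them without order (background 24.8%), and 20 of 50 between the parents, 2 of them without order (background 32.3%). The mature root was the stage with the most parental differences among the 10 probe sets tested. There 8 were higher in the R parent than in the B parent and 1 was lower (the second of GLN2, with both means under 5 and so no order), while of all probe sets 27.7% were higher and 31.3% lower (the background). By gene, 6 of 7 were higher, namely AMT1-1, AMT1-2, GLN1-1, GLN1-2, GDH1 and GDH2, and GLN2 did not pass. The hybrid was lower than the R parent for 6 probe sets and higher for none (background 22.1% higher and 17.7% lower), and against the B parent 4 were higher and 4 lower, 2 of the latter without order (background 18% higher and 16.3% lower). These comparisons share arrays, so their counts do not stand apart from each other. With the 3' index (described below) as a covariate the hybrid minus the R parent lost its call for GLN1-1, GDH1, the first GLN2 probe set and set 3 of GDH2. The R parent minus the B parent then lost its call for GLN1-1 and GLN1-2. The background shares given here are without that covariate. In young roots 5 probe sets were lower in the hybrid than in the B parent and none higher (background 14.3% higher and 11.5% lower), 2 lower and 1 higher against the R parent (background 10% higher and 10.6% lower), and 4 lower and none higher in the R parent against the B parent (background 16.8% higher and 11.7% lower).

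In young leaves 1 probe set was higher and 2 lower in the hybrid against the B parent (background 24.1% higher and 12.3% lower), 2 higher and 1 lower against the R parent (background 36.7% higher and 14.7% lower), and 1 higher and 3 lower in the R parent against the B parent (background 17.3% higher and 29% lower). These shares are near or under the background. Mature and flag leaves held few differences. In mature leaves limma called 1 of 10 against the B parent (AMT1-2, without order, background 10.7%), 0 against the R parent (0 also at an unadjusted p under 0.05, background 6.84%) and 2 between the parents (GDH1, and AMT1-2 without order, background 15.2%). In flag leaves it called 0 against the B parent (1 at an unadjusted p under 0.05, GLN1-1, background 11.9%), 1 against the R parent (GLN1-2, background 10.7%) and 1 between the parents (AMT1-1, background 12.7%). Between organs all 20 tests of leaf minus root passed, with a background of 83.9%, and 22 of 30 tests of older minus younger, 4 of them without order, with a background of 69%. Against the mid-parent 10 of 50 tests passed (background 21.1%), of which 3 in young roots and 4 in mature roots. The change of that difference between 2 stages passed in 14 of 50 tests (background 24.3%), and the change of the parents' difference in 28 of 50, 2 of them without order (background 35.9%).

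**Figure D4:**
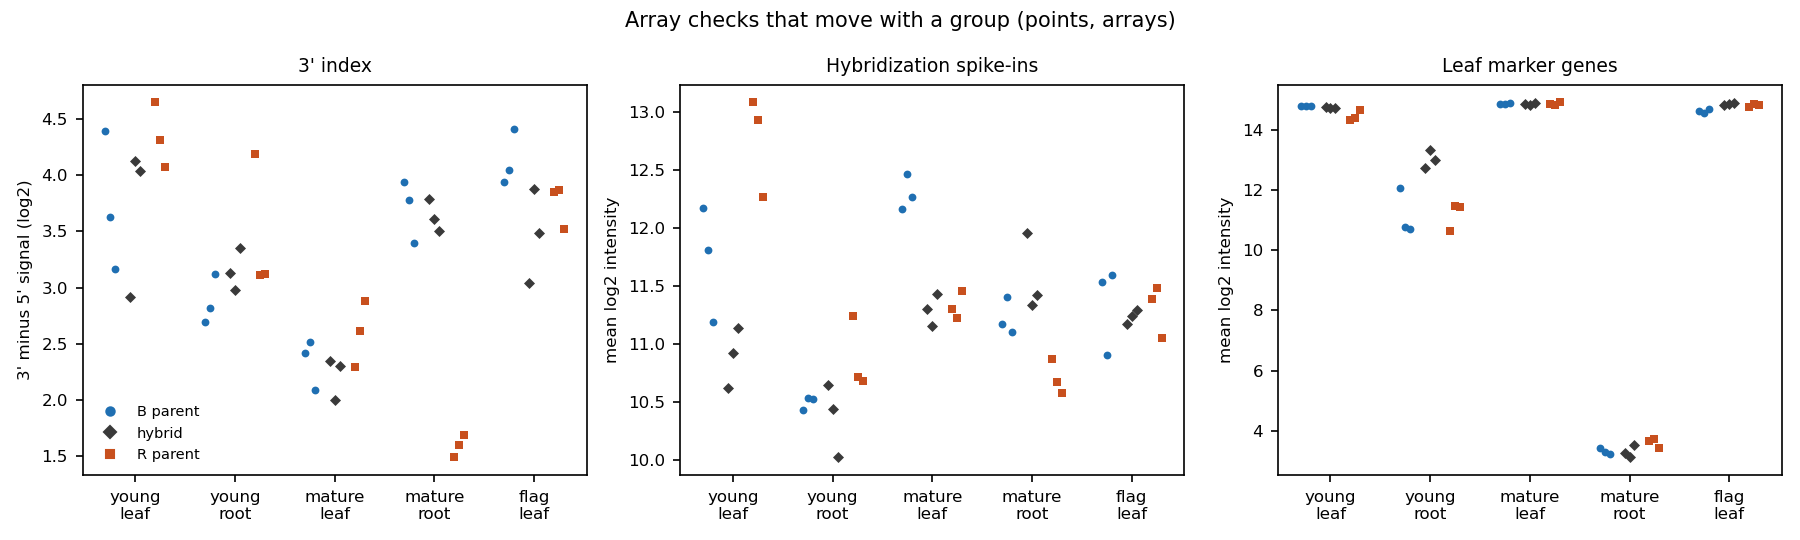
Measures of the arrays (vertical axes) by stage (horizontal axis), with 1 point per array and a colour per genotype: the 3' index, the mean of the hybridization spike-ins and the mean level of 7 leaf marker genes, all in log2. Mature root arrays of the R parent have the lowest 3' index, spike-ins of young leaves are highest in the R parent, and young roots carry more leaf marker signal than mature roots.

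Measures of the arrays moved with some of these groups. Leaf markers set leaf arrays apart from root arrays, and root markers did so only in part. The 7 leaf marker genes averaged 14.31 to 14.91 on leaf arrays and 3.13 to 13.31 on root arrays, highest there in hybrid young roots. The 5 root marker genes averaged 6.63 to 10.71 on root arrays and 5.17 to 7.07 on leaf arrays. The 2 ranges overlapped, since mature roots of the hybrid, the lowest among roots, read 6.63 to 7.51. The 3' index, the signal at the 3' end minus that at the 5' end of 4 control genes, is a sign of how much of each RNA was copied. It was 1.59 ± 0.10 in mature roots of the R parent, against 3.71 ± 0.28 (B parent) and 3.63 ± 0.15 (hybrid). With the index as a covariate, a choice made after the arrays were seen, the mature root difference of the R parent from the B parent was 1.67 for AMT1-1, 1.93 for GDH1 and 2.39 for GDH2, which kept their calls. For GLN1-1 it was 0.74 (adjusted p = 0.404) and for GLN1-2 1.0 (adjusted p = 0.106). The hybrid minus the R parent lost its call for GLN1-1 (-0.81) and GDH1 (-1.47), and GLN1-1 also lost it with the spike-in covariate (-1.08). Over all probe sets the index as a covariate brought the mature root calls from 14222 to 7511 for the R parent minus the B parent. For the hybrid minus the R parent they went from 9611 to 2933. The index moved with leaf age too, at 2.22 to 2.59 in mature leaf groups, 3.7 to 4.34 in young and 3.47 to 4.13 in flag leaves. With it as a covariate the calls over all probe sets went from 15852 to 9832 for mature minus young leaf. For flag minus mature leaf they went from 15482 to 11193. All changes with leaf age given here span this shift in the index. In young leaves the spike-ins, bacterial RNAs added in equal amount, averaged 12.76 ± 0.44 (R parent), 11.72 ± 0.50 (B parent) and 10.89 ± 0.26 (hybrid). The median difference over all probe sets tested there was 0.20 (hybrid minus R parent), and 0.03 after quantile normalization. Each model with a covariate also held 1 mean per group, so the slope rested on the spread of arrays within groups. For the index in mature roots that spread is small beside the distance of the R parent from the others. A kept call therefore does not set RNA quality apart from genotype. Beyond these covariates, the part of RNA quality and of hybridization in the results was not tested.

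The other genes of nitrogen transport, assimilation and regulation were described by a list in which 22 genes had a probe set and 16 were tested. Between the parents' mature roots 6 were higher in the R parent (1 of them, NAR2-2, without order, its means being under 5), 4 lower and 6 did not pass, beside 27.7% higher and 31.3% lower of all probe sets, around a median of 0.34 against -0.06 over all probe sets. NRT2-2, a high-affinity nitrate transporter gene, was higher in the R parent by at least 1.06 and AMT3-2, of the AMT family, by 3.17 ± 0.58. Both are read by probe sets that can bind related sequences. NIA1, for nitrate reductase, was lower by -4.06 ± 0.31 (adjusted p = 2.63e-13) and NLP1, a nitrate-responsive regulator, by -1.05 ± 0.2. NRT2-2, NRT2-3 and NAR2-2, the 3 nitrate transport genes tested, all passed upward, the last without order. The probe set of NRT2-3, like that of NRT2-2, can bind related sequences, so these calls may not stand for separate genes. Of 4 regulators 3 were lower, but with the 3' index as a covariate the list held 6 higher and 2 lower, the latter being NIA1 (-4.1) and NLP1 (-0.89). The hybrid stood between the parents in NIA1, at -2.91 ± 0.31 against the B parent and 1.15 ± 0.31 against the R parent, the second lost without hybrid replicate 2 (0.63), with the 3' index (adjusted p = 0.127) and with mature root arrays alone (adjusted p = 0.085).

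**Figure D5:**
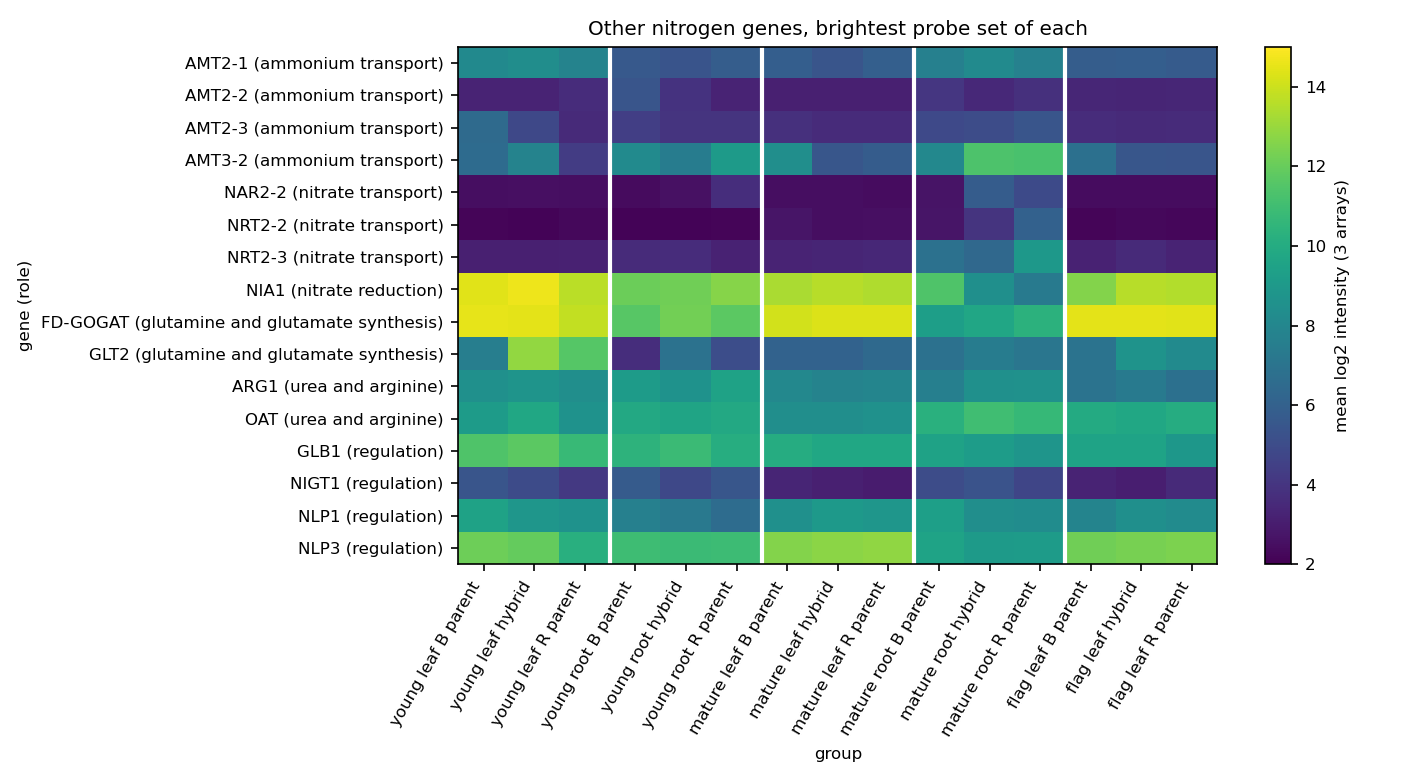
Mean log2 intensity (colour scale, n = 3 arrays) of the 16 other nitrogen genes tested, in rows with their roles, over the 15 groups in columns, with white lines between stages. Along its row GLT2 is brighter in young leaves of the hybrid and the R parent than in those of the B parent, and NIA1 is darkest in mature roots of the R parent.

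In young leaves GLT2, for an NADH-dependent glutamate synthase, was the gene of the list furthest apart between genotypes. It exceeded the B parent level by 5.32 ± 0.42 in the hybrid (adjusted p = 2.87e-12) and by 4.0 ± 0.42 in the R parent (adjusted p = 8.14e-10). In young roots the hybrid exceeded the B parent by at least 1.91 and the R parent by 1.84 ± 0.42. GLT2 was higher in young leaf than in young root by at least 4.99 on average. The hybrid young root arrays carried more leaf marker signal, as given above, and its part in these differences was not tested. Of the 16 genes, 9 were higher and none lower in hybrid young leaves than in the R parent, beside 36.7% and 14.7% of all probe sets, of which NLP3 rose by 1.72 ± 0.16, 1 of the 9 (NIGT1) being without order, and with the spike-in covariate 2 were higher. Against the B parent 1 was higher and 2 lower, beside 24.1% and 12.3%. FD-GOGAT, for the ferredoxin-dependent glutamate synthase that works beside GLN2 in chloroplasts, exceeded its root level in mature leaves by 4.48 ± 0.1 and fell by 2.1 ± 0.1 from young to mature roots. NIA1 followed with 4.4 ± 0.18 and -3.22 ± 0.18. At 40 to 60 days 4 of the 16 genes were higher in leaf than in root and 11 lower (AMT2-2 without order), beside 35.2% and 51.3% of all probe sets. In seedlings the counts were 8 and 6 (NAR2-2 without order), beside 28.1% and 53.2%. The median of all probe sets was -0.35 and -0.41, and -0.18 and -0.1 after quantile normalization.

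The genes whose 15 group means ran most like those of the members were taken from 1968 named genes, as a description over group means that share organs, genotypes and arrays. The pattern of GLN2 was most like those of TPT (the triose phosphate translocator of chloroplasts, Pearson r = 0.987), OsTrx19 (0.980) and LFNR1 (0.980). GDH1 was most like the homeobox gene HOX5 (0.992), Os4CL1 (0.980) and AT9 (0.979), and GDH2 like URH2 (0.981), Alpha-ETF (0.980) and SCAMP4 (0.980). AMT1-2 was nearest to BLE3 (0.970), TGAL4 (0.965) and the zinc transporter gene OsZIP1 (0.963). For the genes that were high in both organs the nearest patterns were less alike: rgp2, FKI and pTUB22 for GLN1-1 (0.942, 0.939 and 0.936), the aquaporin gene OsPIP2;6, GLU2 and OsTUB8 for GLN1-2 (0.913, 0.911 and 0.899), and OsPP2C47, CML18 and OsPP2C10 for AMT1-1 (0.894, 0.888 and 0.883). Among the members GDH1 and GDH2 ran together (0.93), and GDH2 and GLN2 ran opposite (-0.91). AMT1-1 followed neither of these (-0.20 with GDH2 and 0.10 with GLN2) and was nearest to GLN1-1 (0.54).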

How the data were processed

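Affymetrix rice arrays of 45 RNA samples in 15 groups of 3 were analysed, with groups taken from the labels. What the authors deposited is linear-scale intensity, produced by GCRMA per the submitters' processing notes (its version is not given in the sources used here). For this report they were converted to log2 (0 values were under 1) with no further normalization. A model with 1 mean per group took in all arrays (limma 3.58.1, R 4.3.3, 30 residual degrees of freedom), with two-sided tests and Benjamini-Hochberg adjustment for each comparison over 24130 probe sets, controls left out, at a threshold of 0.05. The number of arrays, 3 per group, limits the precision of every value.

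Probe sets were named through the array annotation (22436 with 1 gene, 95 with several, 34850 with none) and RefSeq synonyms. No coordinates or sequences are printed, since neither a genome nor sequences were used here. Named are all member probe sets, up to 2 genes of the nitrogen list per direction and comparison, those furthest apart among the calls, and for each member probe set the 3 named genes with the highest correlation of group means. Of 79 symbols in that list 3 pointed to other genes and were left out. Genes with several probe sets count by the one with the highest mean. The members and lists were chosen with earlier results of these data known.

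Replicate numbers were not taken as pairs: residuals of same-numbered arrays correlated on average between -0.114 and 0.0495 by stage. Single pairs of arrays ran from -0.506 (in young leaves) to 0.425 (in mature roots). Alternatives were array weights, quantile normalization, no filter on level, the compared stages alone, a linear mid-parent, the replicate block, the spike-ins as a covariate, each array left out, and, chosen after seeing the data, the 3' index as a covariate. On data simulated for hybrid minus B parent in young roots (24130 probe sets), 62 of 100 changed 2-fold and 95 of 100 changed 4-fold were called, with 13 false calls. The simulated noise was normal, and only probe sets above background in young roots of the B parent were changed. These were far fewer than the 6213 calls of the real comparison, so the shares called do not carry over to it. Plots come from matplotlib 3.10.9 (Python 3.11.15).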

Additional observations from a re-analysis of the deposited data

Results flagged for a closer look

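The parents differed from each other by different amounts at different stages, and each value here is R minus B parent at the first stage less the same at the second, tested as 1 contrast in limma. A background of 35.9% of all probe set tests of this kind passed, and 28 of 50 for the members. Between mature and young roots the difference was 1.78 ± 0.32 for AMT1-1, 2.11 ± 0.56 for GLN1-1, 2.81 ± 0.41 for GLN1-2, 2.88 ± 0.61 for GDH1, and 3.29 ± 0.39, 3.46 ± 0.49 and 4.62 ± 0.56 for the 3 probe sets of GDH2. In the root of the older plant these genes thus stood higher in the R parent, relative to the B parent, than in the seedling root. The 3' index was lowest in mature roots of the R parent, as given above. With it as a covariate the calls were lost for GLN1-1 (1.0, adjusted p = 0.443) and GDH1 (2.58, adjusted p = 0.0518) and held for the other 5 probe sets. Over all probe sets the calls of this contrast then went from 11511 to 4917. Between young leaf and young root the difference was -3.53 ± 0.32 for AMT1-1, -1.96 ± 0.56 for GLN1-1 and 1.92 ± 0.39 for GDH2. Between mature leaf and mature root it was -1.49 ± 0.32 for AMT1-1, -1.89 ± 0.56 for GLN1-1, -1.34 ± 0.41 for GLN1-2 and -3.05 ± 0.39 for GDH2. Between mature and young leaf it was 3.82 ± 0.32 for AMT1-1, 2.18 ± 0.56 for GLN1-1, 1.04 ± 0.41 for GLN1-2, 2.35 ± 0.61 for GDH1 and -1.68 ± 0.39 for GDH2. Between flag and mature leaf it was -1.12 ± 0.32 for AMT1-1. Leaving out 1 array ended the AMT1-1 call between flag and mature leaf for 8 different arrays (-0.91 to -1.15) and that of GLN1-2 between mature and young leaf for 8 (0.86 to 1.08).

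The difference of the hybrid from the mid-parent also changed with stage, in 14 of 50 member tests against a background of 24.3%. AMT1-1 gave 1.02 ± 0.28 for young leaf less young root, 0.88 ± 0.28 for mature less young leaf and 1.92 ± 0.28 for mature less young root, the last with an adjusted p = 3.63e-06. GLN2 gave 1.47 ± 0.42 for mature leaf less mature root and -2.2 ± 0.42 for mature less young root. GLN1-1 gave 2.01 ± 0.48 for young leaf less young root, and GLN1-2 1.67 ± 0.35 for mature leaf less mature root. GDH2 gave -1.84 ± 0.34 for mature leaf less mature root, -1.06 ± 0.34 for mature less young leaf, 1.24 ± 0.34 for flag less mature leaf and 1.38 ± 0.34 for mature less young root. The GLN2 call for mature leaf less mature root was lost without mature root hybrid replicate 2 (1.19). Of the GDH2 calls, that for mature less young leaf was lost without young leaf hybrid replicate 1 (-0.78), and that for flag less mature leaf without any 1 of 4 arrays (0.99 to 1.24). Contrasts that contain a mean under 5 are left out here. Those that share a stage share its arrays.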

How the results depend on the processing

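No alternative moved a total of member calls by more than 1.5 times. Of 350 member tests, the call changed in 17 after quantile normalization, 10 without the level filter, 16 with array weights, 34 with the compared stages alone, 6 with the replicate block, 30 with the spike-in covariate and 24 with the 3' index, and in 9 of 100 with a linear mid-parent. Leaving out each array in turn kept the calls of the hybrid against each parent between 27 and 32 (30 with all), against the mid-parent between 9 and 12 (10), of the parents between 19 and 21 (20), of leaf minus root at 20, of older minus younger between 21 and 23 (22), and of the stage differences between 13 and 17 (14) and between 25 and 30 (28). The replicate block gave 27, 9, 20, 20, 22, 14 and 26 in the same order, and the numbers were not taken as pairs in the main model. The spike-in covariate, which gave the lowest total for leaf minus root (17), left 24 for the hybrid against each parent. One called value turned its sign, the second GLN2 probe set in flag less mature leaf, 0.39 ± 0.16 (adjusted p = 0.0309) and -0.15 with the 3' index (adjusted p = 0.686), the cause of which was not tested. Means under 5 limit AMT1-2 outside young roots, GDH1 in flag leaves and the second GLN2 probe set in roots to bounds or no order.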
